A study of Mus musculus with 96 samples.

Results

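Chromosomes 6, 11 and 17 of the mouse pancreatic tumour line KPC1199EGFP were examined as the set of chromosomes held at 3 copies in nearly every nucleus. All 713 of the 4906 genomic bins that lie on them were taken: 289 on chromosome 6, 246 on chromosome 11 and 178 on chromosome 17. A bin was 487 kb wide on chromosome 6, 472 kb on chromosome 11 and 488 kb on chromosome 17 (medians, genome build mm9). The line has a C57BL/6 background and expresses EGFP for recognition by flow cytometry. It was grown as an adherent, untreated culture to passage 9. Its nuclei were stained with DAPI, which binds DNA, and a flow cytometer separated them by DNA content into gates named 2N+, 4N and 2N. Whole genomes were amplified with the SeqXE kit and sequenced from 35 single 2N+ nuclei, 12 single 4N nuclei and 47 single 2N nuclei, and from 1 bulk library each of 2N+ and 2N. All nuclei share this line, passage and culture description. The labels do not say what DNA content the name 2N+ covers, nor whether nuclei of a gate came from separate cultures. Each gate is therefore 1 sample, no test between gates was made, and the intervals below are exact (Clopper-Pearson, 95%) and cover counting error only.

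A trisomic chromosome is present in 3 copies where a diploid cell has 2. Gains and losses of whole chromosomes arise when sister chromatids are divided unequally at mitosis, and changes of part of a chromosome need a break in the DNA. Many mouse tumour lines carry such changes, and nuclei of a line can share a change inherited from a common ancestor while others differ between nuclei. As background on what the 3 chromosomes carry, mouse chromosome 6 holds Ccnd2, which encodes the cell cycle regulator cyclin D2. Trp53, which encodes the p53 tumour suppressor, lies on chromosome 11, and Cdkn1a, which encodes the p53-induced cell cycle inhibitor p21, lies on chromosome 17. No gene was measured or placed in a bin here.

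The deposited value of a bin is a ratio to the library's own average, constant over runs of bins as segment means are. It has no depth, so copies had to be fitted. A multiplier was chosen for each nucleus and each bulk library that brought its autosomal ratios closest to whole numbers. The level times this multiplier is called fitted copies. A second scale needs no such fit: the level divided by that of chromosomes 4, 7, 9, 10 and 13, taken as 2 copies, is called the disomic scale. On the disomic scale a nucleus with every chromosome doubled looks like one without. The multiplier had a median of 2.55 in 2N+ nuclei, 2.525 in 4N nuclei and 2.4 in 2N nuclei. Some libraries stood apart. Autosomes held more than 60 breakpoints in 6 nuclei (2N+ nuclei 22, 24 and 31 and 4N nuclei 7, 9 and 10). In 8 nuclei (3 of 2N+, 3 of 4N and 2 of 2N) the root mean square distance of autosomal bins from whole numbers was above 0.15 copies. It was also above 0.15 in both bulk libraries, at 0.181 in 2N+ and 0.175 in 2N, so their fitted copies are uncertain as well. No libraries held identical values.

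On fitted copies, all 3 chromosomes stood at 3 together in 29 of 35 2N+ nuclei (82.9%, interval 66.4 to 93.4%). The same held for 8 of the 12 nuclei of the 4N gate (66.7%, 34.9 to 90.1%) and for 44 of the 47 of the 2N gate (93.6%, 82.5 to 98.7%). The intervals of the 3 gates overlap. Taken alone, chromosome 6 was at 3 in 31 of 35 (88.6%) in the 2N+ gate, 8 of 12 in the 4N gate, and 46 of 47 (97.9%) among 2N nuclei. For chromosome 11 the counts were 33 of 35 (94.3%) in the 2N+ gate, 8 of 12 in the 4N gate, and 45 of 47 (95.7%) among 2N nuclei. For chromosome 17 they were 33 of 35 in the 2N+ gate, 8 of 12 in the 4N gate, and 46 of 47 among 2N nuclei. Over all 19 autosomes, 46% of chromosomes were at 3 copies in 2N+ nuclei, 34.6% in 4N nuclei and 41.1% in 2N nuclei. Along the chromosomes the state was read from the median over nuclei of each bin. By it, 713 of 713 bins (100%) were at 3 copies in 2N+ nuclei and again in 2N nuclei. Of all autosomal bins, 48.6% were in 2N+ nuclei and 45.4% in 2N nuclei. In the 4N gate, 64.5%, 58.7% and 65.6% of the bin values of chromosomes 6, 11 and 17 were at 3 copies. The 3 chromosomes were chosen for this state in these same data and are part of the autosomal totals. These shares therefore describe the choice and do not test it.

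The levels themselves lay close to 3. Chromosome 6 had a lowest, median and highest level of 2.10, 3.02 and 3.99 fitted copies in 2N+ nuclei, of 2.78, 3.0 and 6.0 in 4N nuclei and of 2.94, 3.02 and 3.96 in 2N nuclei. Chromosome 11 had 2.86, 2.98 and 4.0 in 2N+ nuclei, 2.71, 2.97 and 5.84 in 4N nuclei and 2.04, 2.94 and 3.05 in 2N nuclei. Chromosome 17 had 2.20, 3.03 and 3.68 in 2N+ nuclei, 2.86, 3.02 and 6.01 in 4N nuclei and 2.92, 3.04 and 4.80 in 2N nuclei. The medians of the gates differ by less than 0.1 copies on each chromosome, and the ranges of all gates overlap. The levels near 2 and those of 3.68 and above belong to the nuclei described below.

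**Figure D1:**
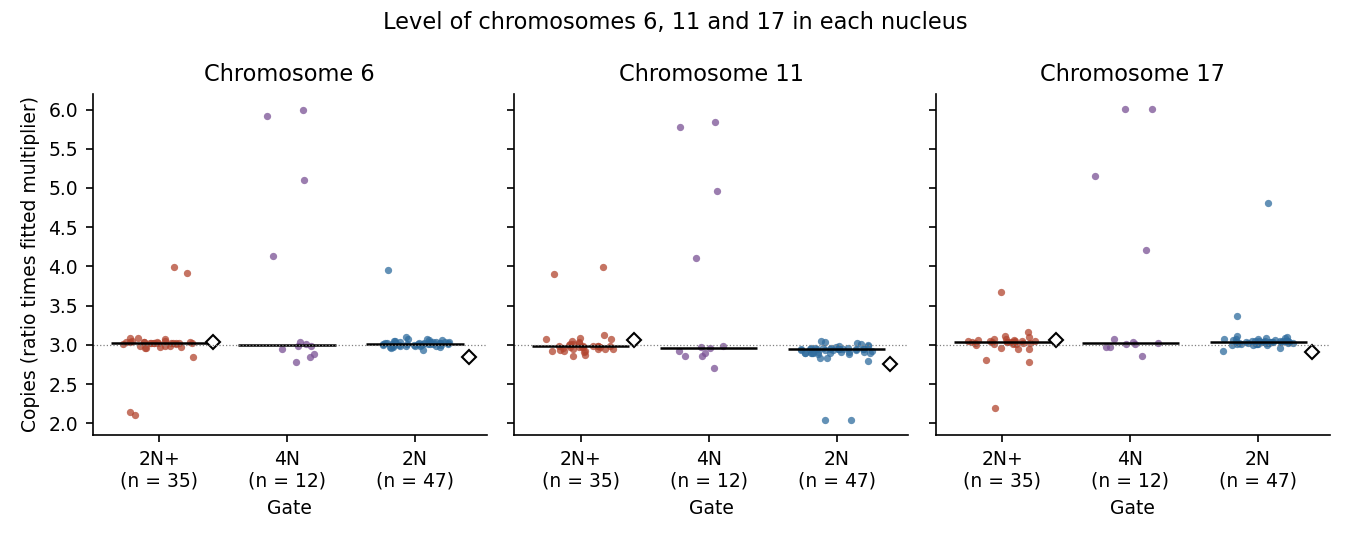
Fitted copies (vertical axis, ratio times the nucleus's multiplier) of chromosomes 6, 11 and 17 in each 2N+, 4N and 2N nucleus, with a line at the median of each gate and a diamond for its bulk library. Most points lie on a narrow band at 3, and those near 2 or at 3.68 and above are the exceptions named in the text, with 4N nuclei 2 to 5 at 4.11 and above.

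The 4N nuclei differed mainly in the fit. The 4 that were not at 3 were nuclei 2, 3, 4 and 5, whose multipliers of 3.45, 4.65, 4.65 and 4.70 were the largest of all nuclei. Nucleus 2 had 4.13, 4.11 and 4.20 fitted copies of chromosomes 6, 11 and 17. Its fit was unclear: its autosomal bins lay 0.206 copies from whole numbers (root mean square), the largest distance of all libraries. In nuclei 4 and 5 this distance was 0.0967 and 0.107 copies. Nucleus 4 had 6.0, 5.84 and 6.01 fitted copies, and nucleus 5 had 5.92, 5.78 and 6.0. On the disomic scale these 3 nuclei lay at 2.82 to 2.99 on all 3 chromosomes, within the range of the other nuclei. Nucleus 3 had 5.10, 4.96 and 5.15 fitted copies, and on the disomic scale it lay between the states, at 2.52, 2.45 and 2.55. With every nucleus on the disomic scale and levels rounded, 12 of 12 4N nuclei were at 3 for chromosome 6, 11 of 12 for chromosome 11 and 12 of 12 for chromosome 17. Nucleus 3 was counted at 3 on chromosomes 6 and 17 only because 2.52 and 2.55 round up. Whether nuclei 4 and 5 hold 6 copies of these chromosomes against 4 of the disomic ones, or 3 against 2, cannot be told apart from ratios within a nucleus.

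Across all 94 nuclei on the disomic scale, chromosome 17 was at 3 in 91 (96.8%), chromosome 6 in 89 (94.7%) and chromosome 11 in 89 (94.7%). The counts of chromosomes 6 and 17 include 4N nucleus 3, whose levels of 2.52 and 2.55 were rounded up to 3. All 3 were at 3 together in 84. Pooled over the gates, the other chromosomes whose most frequent state was 3 copies held it in fewer nuclei. The nearest were chromosome 8 with 84, chromosome 19 with 83 and chromosome 1 with 67. This order did not hold in the 2N+ gate. On fitted copies, chromosomes 8 and 19 were each at 3 in 32 of 35 2N+ nuclei, against 31 for chromosome 6. In the 2N gate they were at 3 in 41 and 40 of 47, against 46 for chromosome 6. On the disomic scale, fixed states were also seen at 2 copies, in 94 of 94 nuclei for chromosomes 4, 7 and 10. That scale, though, was set by these and by chromosomes 9 and 13. The differences between chromosomes were not tested.

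Exceptions on chromosome 6 went both ways. It was lost in part to 2 copies in 2N+ nuclei 1 and 8. In nucleus 1, 3.86 fitted copies over the first 59 bins gave way to 2.14 over the other 230, with the step at chr6:33292629. In nucleus 8, 3.03 copies over 73 bins gave way to 2.10 from chr6:39985360, over 214 bins. In 2N nucleus 44 the chromosome median stayed at 3, with 3.01 copies up to a step at chr6:79123939 and 2.11 over 139 bins (48.1% of the chromosome) beyond it. 4N nucleus 3 had a step close to this one, at chr6:78585191, with 5.1 fitted copies before it and 4.22 after it. All 4 nuclei had the higher level at the start of the chromosome and the lower one beyond the step. Gains to 4 were seen in 2N+ nuclei 25 and 30 and in 2N nucleus 34. In 2N+ nucleus 30 the whole chromosome was 1 segment at 3.99 copies. In 2N+ nucleus 25, 164 bins lay at 3.92 and a further 66 at 3.94, with lower parts of 3.01 to 3.55 between them. 2N nucleus 34 had 3.9 copies over 84 bins, 3.47 over 18, 3.96 over 173 and 4.57 over the last 14.

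In the 2N+ and 2N gates, nuclei with chromosome 11 off 3 copies by its median had every bin of it off 3. Other nuclei were off 3 over part of it only, as described below. The chromosome stood at 3.91 fitted copies in 2N+ nucleus 6 and at 4.0 in 2N+ nucleus 30, where a middle stretch of 27 bins lay lower, at 3.62. In 2N nucleus 2 it was a single segment at 2.04, and in 2N nucleus 34 it was at 2.04 over 226 of 246 bins. The gains were in the 2N+ gate and the losses in the 2N gate, with 2 nuclei each. 2N nucleus 45 lost only the distal end: 2.89 copies over 168 bins gave way to 2.04 from chr11:85150847, apart from a stretch of 3 bins at 2.67.

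Chromosome 17 had 3 exceptions. In 2N nucleus 12 it was at 3.80 copies over the first 50 bins and at 4.80 from chr17:30677471 over the other 128. In 2N+ nucleus 14, 3.09 copies over 84 bins gave way to 3.94 from chr17:48482208 over 72 bins, with further segments of 3.19 to 4.19 up to the end. In 2N+ nucleus 30 it was lost, at 2.13, 2.37 and 2.20 copies over its 3 segments. This nucleus, with 4 copies of chromosomes 6 and 11 and about 2 of chromosome 17, departed on all 3 chromosomes. The root mean square distance of its autosomal bins from whole numbers was 0.164 copies. 2N nucleus 34 departed on chromosomes 6 and 11, in opposite directions. The other exceptions outside the 4N gate each concerned 1 of the 3 chromosomes. The breakpoint-rich 2N+ nuclei 22, 24 and 31 and 4N nucleus 7 stood at 3 on every chromosome by the median, though on at least 1 of the 3 they had 10% or more of its bins at another copy number.

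**Figure D2:**
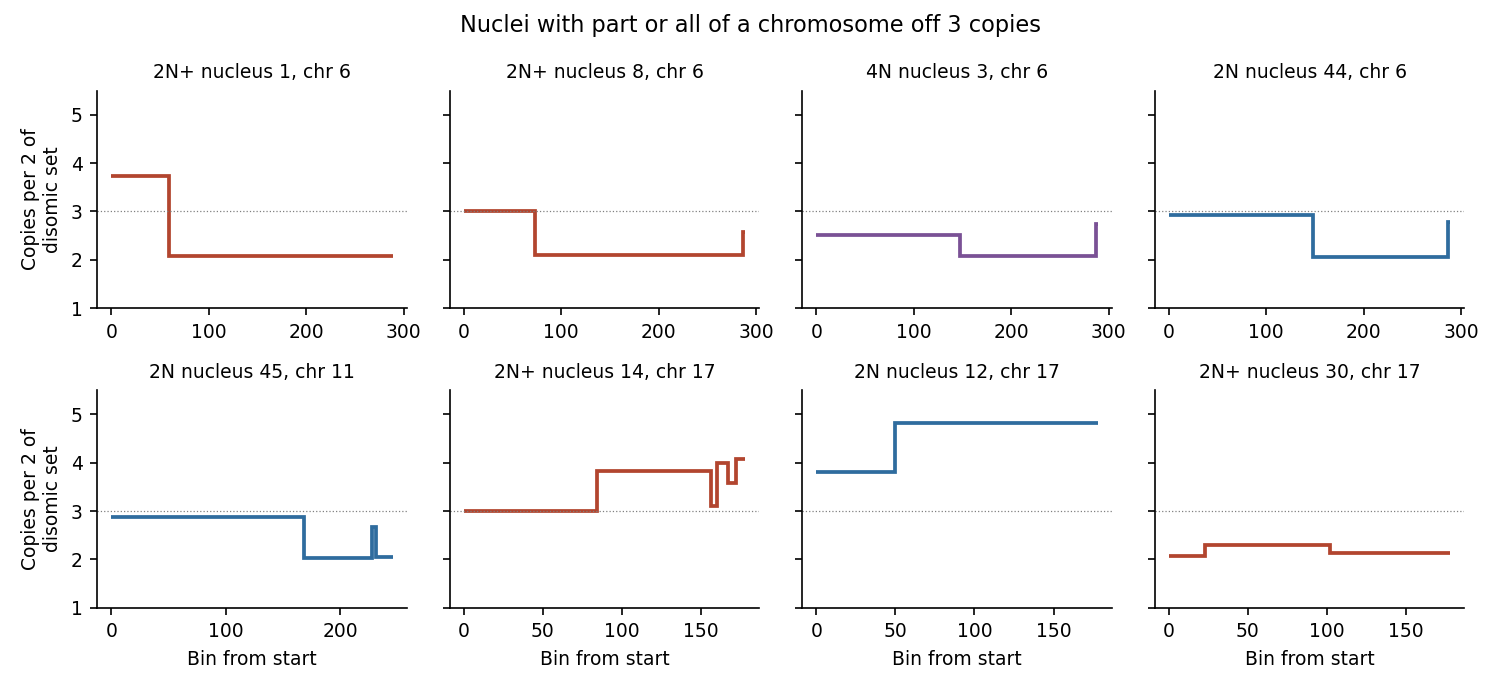
Level on the disomic scale (vertical axis, copies per 2 copies of chromosomes 4, 7, 9, 10 and 13) along the chromosome (horizontal axis, bins from the start) in 8 chromosomes with all or part off 3 copies, the dotted line marking 3. Chromosome 6 falls to about 2 beyond a step in 2N+ nuclei 1 and 8, 4N nucleus 3 and 2N nucleus 44, and chromosome 17 reaches 4.81 in 2N nucleus 12.

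Chromosome 11 lay slightly below the other members. Among the 84 nuclei with all 3 at 3 copies on the disomic scale, chromosome 11 averaged 2.91 ± 0.0606, chromosome 6 averaged 2.96 ± 0.0442 and chromosome 17 averaged 2.99 ± 0.0501 (SD over nuclei, copies per 2 disomic copies). It was lower than chromosome 17 in 79 of the 84: in 25 of 29 in the 2N+ gate, 11 of 11 in the 4N gate, and 43 of 44 among 2N nuclei. The mean difference, chromosome 11 minus chromosome 17, was -0.081 ± 0.0796 copies, about as large as its SD over nuclei. The 2N bulk library had the same order, with 2.87 for chromosome 11 and 3.02 for chromosome 17. The 2N+ bulk library did not, with 3.0 for chromosome 11 and 2.99 for chromosome 17. The GC content of the bins was not used here, and its part in these differences was not tested.

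The bulk libraries gave nearly the mean of the nuclei. On the disomic scale chromosome 6 averaged 2.97 ± 0.311 in 35 2N+ nuclei against 2.97 in the 2N+ bulk library, and 2.99 ± 0.136 in 47 2N nuclei against 2.96 in the 2N bulk library (SD over nuclei). Chromosome 11 averaged 2.99 ± 0.224 in 2N+ nuclei against 3.0 in bulk, and 2.86 ± 0.184 in 2N nuclei against 2.87 in bulk. Chromosome 17 averaged 2.97 ± 0.186 in 2N+ nuclei against 2.99 in bulk, and 3.04 ± 0.268 in 2N nuclei against 3.02 in bulk. The differences between nuclei and bulk were not tested. No 4N bulk library was analysed here.

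**Figure D3:**
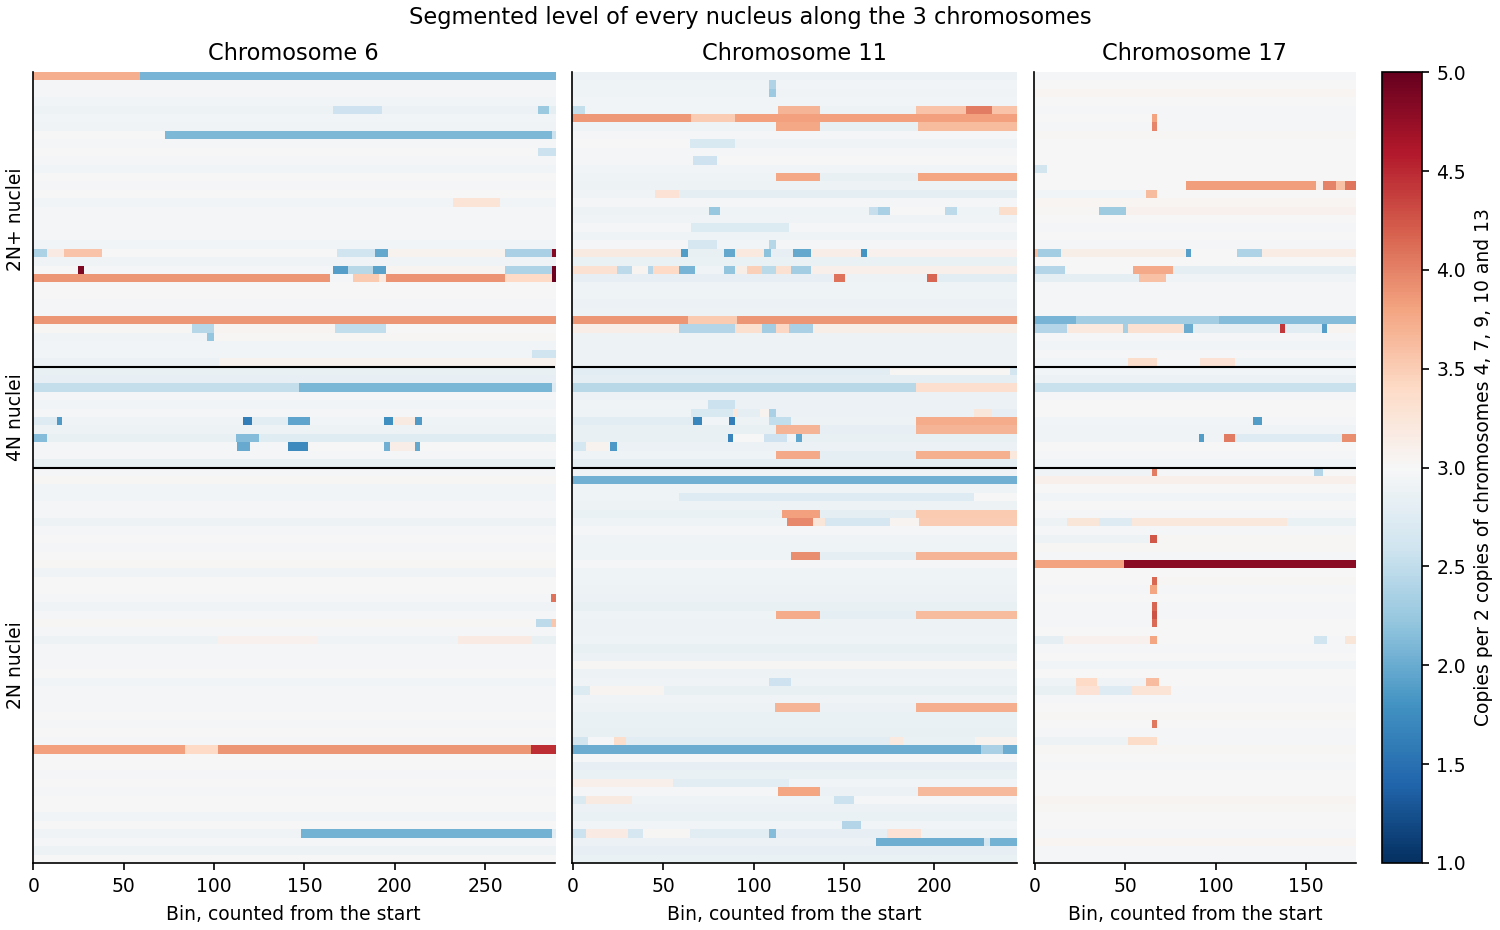
Level on the disomic scale (colour) in every bin of the 3 chromosomes (horizontal axis, bins counted from the start) in each nucleus (vertical axis, 2N+ above 4N above 2N, in order of nucleus number). Pale rows at 3 copies fill most of the panel. The paired red blocks on chromosome 11 recur in all 3 gates, and the short red segment on chromosome 17 recurs in 2N+ and 2N nuclei.

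Levels also changed within the chromosomes. A chromosome with 10% or more of its bins at another whole copy number than its most frequent one is called mixed. Chromosome 6 was mixed in 5 of 35 in the 2N+ gate, 2 of 12 in the 4N gate, and 2 of 47 among 2N nuclei. For chromosome 11 these counts were 6 of 35 in the 2N+ gate, 4 of 12 in the 4N gate, and 7 of 47 among 2N nuclei. Mixed copies of chromosome 17 were found in 4 of 35 in the 2N+ gate, 0 of 12 in the 4N gate, and 1 of 47 among 2N nuclei. Over all autosomes 12.5% of chromosomes in 2N+ nuclei, 20.2% in 4N nuclei and 13.8% in 2N nuclei were mixed, so the members lie on both sides of the background. Without the 6 breakpoint-rich nuclei, the 2N+ gate had 3 of 32 nuclei with a mixed chromosome 6, 3 of 32 with a mixed chromosome 11 and 1 of 32 with a mixed chromosome 17. The 4N gate then had 1 of 9, 3 of 9 and 0 of 9, in the same order of chromosomes.

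A step was counted where neighbouring bins of a nucleus differed by at least 0.5 fitted copies, and steps within 2 bins of each other were merged into 1 position. Because the limit is in fitted copies, it admits smaller changes of the ratio in 4N nuclei 2 to 5, which had the largest multipliers. There were 83 positions: 29 on chromosome 6, 32 on chromosome 11 and 22 on chromosome 17. At least 1 step was present in 48 of 94 nuclei. Of the positions, 42 were seen in 1 nucleus, 21 in 2 and 20 in 3 or more, so 24.1% recurred in 3 or more nuclei, where 18.9% of positions over all autosomes did. Without the 6 breakpoint-rich nuclei there were 46 positions in 42 nuclei, 8 of them in 3 or more.

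The most frequent steps on chromosome 11 lay at 3 positions. The merged step named by chr11:59116632 was present in 17 nuclei (9 of 2N+, 3 of 4N and 5 of 2N). It took in steps from chr11:57183025 to chr11:60596901, with falls as well as rises in 5 of the nuclei. The step at chr11:95625099 was present in 12 nuclei and the step at chr11:70335155 in 10. At the named bin alone, these 3 counts were 12, 9 and 10. All 12 steps at chr11:95625099 rose along the chromosome and all 10 at chr11:70335155 fell, at the same bin in all 10. Other merged positions on chromosome 11 were 47866870 in 8 nuclei, 62919628 in 6, 68028492 in 4 and 18324849, 32894877 and 55253556 in 3 each. The first took in steps from chr11:43989856 to chr11:47866870, with falls as well as rises in 4 of the nuclei. At 62919628 the step rose in 2 nuclei and fell in 4. For 47866870, 62919628 and 68028492 the counts at the named bin alone were 5, 2 and 2. Without the breakpoint-rich nuclei their merged counts were 3, 2 and 1. Those at 32894877 and 55253556 were seen only in breakpoint-rich nuclei. On chromosome 17 the steps at 38666561 and 40624876 were present in 13 nuclei each, the step at 32586327 in 6 and those at 11668078, 24143635, 48482208 and 86276873 in 3 each. The step at 11668078 again was seen only in breakpoint-rich nuclei. Without such nuclei the counts at 32586327, 48482208 and 86276873 were 4, 1 and 2. On chromosome 6 the merged position 148528640 had a step in 8 nuclei, 101213225 in 5, and 87052537 and 135992356 in 3 each. The bin 148528640 starts the last 2 bins, and 5 of the 8 nuclei stepped there, the others from 147557016 on. Position 101213225 took in steps up to 103745088, with falls as well as rises in 2 of its nuclei. Without the breakpoint-rich nuclei these 4 counts were 6, 1, 1 and 1.

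The 3 leading positions on chromosome 11 bound 2 blocks that were raised in the same 11 nuclei, the distal one in 2 others as well. The inner block, chr11:59116632-70335154, spans 24 bins and 11.2 Mb. The distal block runs from chr11:95625099 to the end of the chromosome and spans 56 bins, 22.8% of the chromosome. A block was called present where its level lay at least 0.5 fitted copies above the rest of the chromosome, a limit and borders chosen after the data were seen. Both blocks were present in 11 of 94 nuclei (11.7%, interval 5.99 to 20%). They were 2N+ nuclei 5, 7 and 13 (3 of 35, 8.57%, 1.8 to 23.1%), 4N nuclei 8 and 11 (2 of 12, 16.7%, 2.09 to 48.4%) and 2N nuclei 6, 7, 11, 18, 29 and 39 (6 of 47, 12.8%, 4.83 to 25.7%). None of the 6 breakpoint-rich nuclei was among them, and the shares of the gates have overlapping intervals.

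The inner block was never seen without the distal one (0 of 94 nuclei, which allows a share of up to 3.19% by a limit of 3 counts and 3.85% by the exact interval). The distal block was present without the inner one in 4N nuclei 3 and 7. In the 11 nuclei with both, the inner block was 1.25 to 1.36 times the rest of the chromosome (median 1.29, mean 1.30 ± 0.0335, SD), an excess of 0.766 to 1.10 fitted copies. The distal block was 1.21 to 1.30 times the rest (median 1.25, mean 1.25 ± 0.0315), an excess of 0.636 to 0.882 copies. The distal excess was below 1 copy in all 11 nuclei. In the 81 nuclei with neither block the median ratio was 1.0 for each, and 79 lay within 0.1 copies of the rest of the chromosome for each block. The groups with and without the blocks do not overlap, which the 0.5-copy limit itself ensures.

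The borders were not the same in every nucleus. The inner block ended at chr11:70335154 in 10 of the 11, and it began at chr11:59116632 in 5 of the 11: 2N+ nuclei 7 and 13, 4N nuclei 8 and 11 and 2N nucleus 18. It began at chr11:59574154 in 2N+ nucleus 5 and 2N nucleus 39, at chr11:60596901 in 2N nucleus 6, at chr11:62919628 in 2N nucleus 11 and at chr11:58659994 in 2N nucleus 29. In 2N nucleus 7 the block covered chr11:61984897-68479453, at 4.15 copies. The distal block began at chr11:96097252 in 2N+ nuclei 7 and 13 and 2N nucleus 39 and at chr11:96548575 in 2N nucleus 7, and at chr11:95625099 in the other 7 nuclei with both. In 4N nucleus 11 it ended before the end of the chromosome, at chr11:119920154. In 4N nucleus 3 the distal block was 1.36 times the rest.

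Neither block as a whole was raised in the bulk libraries. Over all nuclei of a gate, the inner block averaged 1.02 times the rest of the chromosome in 35 2N+ nuclei and 1.04 in 47 2N nuclei, against 1.0 in each bulk library. The distal block averaged 1.02 in 2N+ nuclei and 1.03 in 2N nuclei, against 1.0 in each bulk library. Neither bulk library had a step at chr11:70335155 or chr11:95625099. Parts of the distal block did differ. In the 2N+ bulk library 18 of its bins, from chr11:111601473, stood at 3.35 fitted copies, against 3.06 before them. In the 2N bulk library its last 9 bins stood at 2.55, against 2.76 before them. The smallest step of a bulk library on chromosome 11 was -0.205 copies. Whether a segmented bulk library could show shifts as small as these gate means was not tested.

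**Figure D4:**
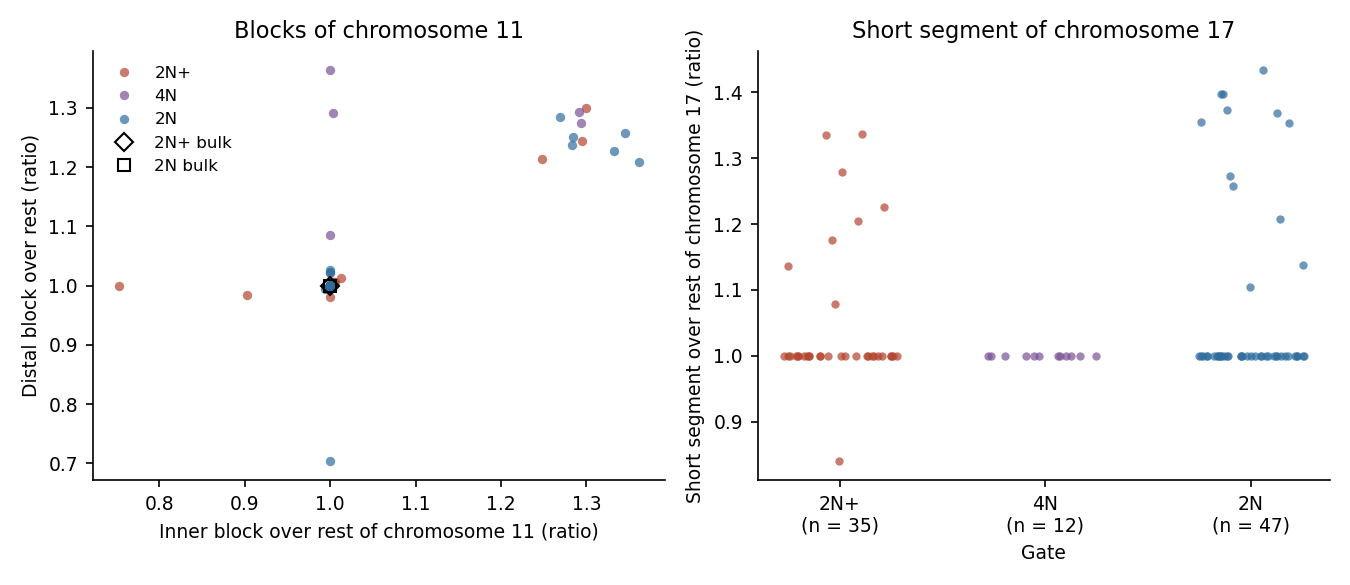
Left, ratio of the distal block (vertical axis) and of the inner block (horizontal axis) to the rest of chromosome 11, for each nucleus coloured by gate and for both bulk libraries. Right, ratio of the short segment to the rest of chromosome 17 in each nucleus by gate. On the left the 11 nuclei with both blocks lie together at 1.25 to 1.36 for the inner and 1.21 to 1.3 for the distal block, apart from the crowd at 1.0, and on the right all 4N nuclei lie at 1.0.

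Next to the inner block lay a dip, at chr11:57183025-59116631 (4 bins, 1.93 Mb), whose distal border is the same bin, 59116632. A dip of at least 0.5 fitted copies was present in 5 of 35 2N+ nuclei (2, 3, 21, 24 and 31), in 1 of 12 in the 4N gate (nucleus 6) and in 1 of 47 in the 2N gate (nucleus 44). Without the breakpoint-rich nuclei 24 and 31 it was in 3 of 32 2N+ nuclei. No nucleus with both blocks was among these 7, where 11.7% of all 94 nuclei had both blocks. With so few nuclei this does not show that the 2 patterns exclude each other, which was not tested. In the 7 nuclei the dip was 0.737 to 0.822 times the rest of the chromosome, with a median of 0.796. The 2N+ bulk library showed it as well, at 0.816 times the rest, 0.563 copies below it, while the mean over the 35 2N+ nuclei was 0.965. The 2N bulk library stood at 1.0 and the mean over 2N nuclei at 0.991. The rise at the bin chr11:59116632 itself, in 12 nuclei, therefore combines the rise into the inner block and the rise out of the dip. Of the 17 nuclei with the merged step, 2N+ nucleus 22 rose at chr11:57652086 and had neither block nor dip.

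The 2N+ bulk library had further steps on chromosome 11 only. Along the chromosome it fell by 0.3 copies at 32894877, rose by 0.346 at 47866870, fell by 0.617 at 57183025, rose by 0.563 at 59116632, rose by 0.291 at 111601473 and fell by 0.317 at 119920155. Steps of any size in the same direction at these bins were present in 4, 7, 7, 12, 0 and 2 nuclei of the 94, and steps of at least 0.5 copies in 2, 5, 5, 12, 0 and 1. At 32894877 both nuclei with the larger step were breakpoint-rich, as were 4 of the 5 at 47866870. The remaining one was 4N nucleus 5, which rose from 5.16 to 5.78 fitted copies, but from 2.57 to 2.88 on the disomic scale. The smaller rises at 47866870 were in 2N+ nuclei 6 and 9, which were not breakpoint-rich. The 2N bulk library fell by 0.205 copies at chr11:117648303, its only step on the 3 chromosomes, and no nucleus had a step of 0.5 copies there. Chromosomes 6 and 17 were 1 segment in both bulk libraries.

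Chromosome 17 carried a short recurrent gain at chr17:38666561-40624875, 3 bins and 1.96 Mb long. Steps up and down merged into these border positions were present in 13 of 94 nuclei, none of them breakpoint-rich. Of 35 2N+ nuclei 3 had them (8.57%, interval 1.8 to 23.1%). Of 12 4N nuclei 0 had them, which allows a share of up to 25% by a limit of 3 counts and 26.5% by the exact interval. Of 47 2N nuclei 10 had them (21.3%, 10.7 to 35.7%). The rise was at the first of the 3 bins in 8 of the 13 nuclei and up to a few bins earlier in the others. Over the 3 bins the level lay at least 0.5 fitted copies above the rest of the chromosome in these 13 and in 2N+ nuclei 24 and 25, which were raised over longer stretches of 22 and 15 bins that contain them. In these 15 nuclei the ratio to the rest of the chromosome was 1.2 to 1.43, with a median of 1.34 and an excess of 0.623 to 1.32 copies. In 73 of the other 79 nuclei it lay within 0.1 copies of the rest. Averaged over a gate the segment stood at 1.05 times the rest in 2N+ nuclei and 1.08 in 2N nuclei, against 1.0 in each bulk library. Its first bin, at chr17:38666561, had the smallest share of 2N nuclei at 3 copies of all member bins (36 of 47, 76.6%). In 2N+ nuclei the smallest share was at the first bin of the dip, chr11:57183025 (27 of 35, 77.1%). Among the nuclei with both blocks of chromosome 11, 2N+ nucleus 7 and 2N nucleus 18 also held the short segment.

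The 11 nuclei with both blocks of chromosome 11 shared the states of some other chromosomes. On fitted copies, chromosome 5 was at 3 in 11 of 11 of them and in 11 of the other 83 nuclei (13.3%, interval 6.81 to 22.5%). Chromosome 15 was at 3 in 11 of 11 and in 35 of 83, and chromosome 16 was at 2 in 11 of 11 and in 51 of 83. Among nuclei without both blocks, chromosome 15 was at 3 in 27 of 32 2N+, 2 of 10 4N and 6 of 41 2N nuclei. Chromosome 16 was at 2 in 10 of 32, 5 of 10 and 36 of 41 of them, in the same order. The first state was thus frequent in the 2N+ gate, and the second in the 2N gate, without the blocks. The other 83 include 4N nuclei 2 to 5, which had the largest multipliers. Chromosomes 5 and 15 were at 3 together in 11 of 11 and in 10 of 83. By gate, chromosome 5 was at 3 in 3 of 3 2N+ nuclei with both blocks and 10 of 32 without, in 2 of 2 and 1 of 10 of the 4N gate, and in 6 of 6 and 0 of 41 of the 2N gate. Chromosome 2 was at 4 in 3 of 3 2N+ nuclei with both blocks and 7 of 32 without, in 0 of 2 and 1 of 10 of the 4N gate, and in 6 of 6 and 0 of 41 of the 2N gate.

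These nuclei were not alike throughout. Chromosome 3 was at 4 in 3 of 3 2N+, 2 of 2 4N and 1 of 6 2N nuclei with both blocks. Without both blocks it was at 4 in 26 of 32, 2 of 10 and 4 of 41, in the same order. The X chromosome was at 1 in 7 of the 11 and in 54 of the other 83. Chromosome 19 was at 4 and chromosome 18 at 2 in 8 of the 11 (2N+ nuclei 5 and 7, 4N nucleus 11 and 2N nuclei 6, 7, 11, 18 and 39) and in 0 of the other 83 nuclei. Chromosomes 14, 18 and 19 were all at 3 in the remaining 3 (2N+ nucleus 13, 4N nucleus 8 and 2N nucleus 29) and in 1 of the other 83, 2N+ nucleus 21. Each of the 2 combinations was found in all 3 gates. The combinations were chosen after the values were seen, so these counts describe the 94 nuclei and were not tested.

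**Figure D5:**
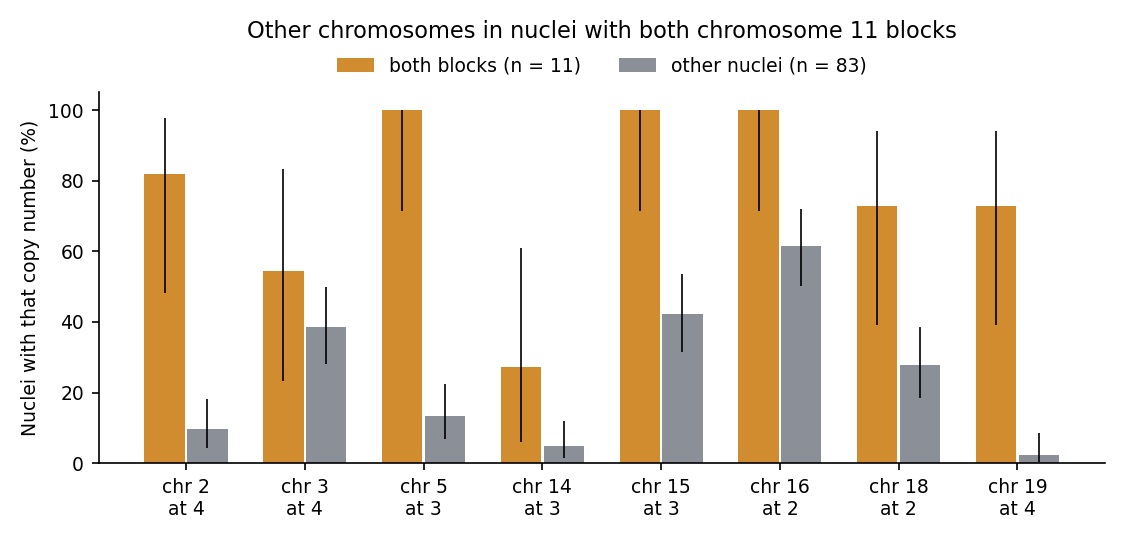
Percentage of nuclei (vertical axis) with a given fitted copy number of other chromosomes (horizontal axis), for the 11 nuclei with both blocks of chromosome 11 and for the other 83 nuclei. Thin lines are exact 95% intervals, which cover counting error only. Chromosome 5 is at 3 copies in all 11 and in 13.3% of the other nuclei, and chromosome 19 is at 4 in 8 of 11 and in 2 of 83.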

How the data were processed

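Single nuclei and bulk samples were amplified with the SeqXE kit and sequenced, per the labels' protocols. Per the submitters' processing notes, reads were handled with Bowtie 1.0 and build mm9. How bins, GC correction and segments were made was not given in the sources used here. Linear ratios were deposited. Library means were 0.994 to 1.09. The values are not counts, so depth is unknown and errors come from the spread of nuclei. The table mixes tabs and spaces, and each line was read as 99 fields. Gates came from the sample titles.

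The multiplier of each nucleus was the value between 1.5 and 6, in steps of 0.05, that brought autosomal ratios nearest to whole numbers by mean squared distance. A chromosome's copies are the median of its bins multiplied by this value, and counts use them rounded. The fit was tested on simulated nuclei. Positions are in mm9, counted from 1, and no mm9 genome or annotation was used. The text names every nucleus not at 3 copies on a member, every step position in 3 or more nuclei and up to 5 nuclei with the most bins off 3 copies. The members, the position at chr11:59116632 and the lists were chosen with earlier results of these data known. Alternatives were the multiplier limited to 2.0 to 3.0, the disomic scale, step limits of 0.3 and 0.7 copies, exact bins, limits of 5% and 25% of bins, and the nuclei of unclear fit or over 60 breakpoints left out. Tables were handled with pandas 2.3.3 and numpy 2.4.6 in Python 3.11.15, intervals came from scipy 1.17.1, and matplotlib 3.10.9 drew the plots.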

Additional observations from a re-analysis of the deposited data

How the results depend on the processing

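The choice of scale moved the 4N gate most. Of 223 alternative values for 52 results, 185 stayed within the margin, 38 moved and 0 reversed. The margin was the exact 95% interval for a share, 1 SD over nuclei for a level and 1.5 times for a count, so a share based on few nuclei could change by 2 times and stay within it. Under a multiplier held between 2.0 and 3.0, 91.7% of nuclei in the 4N gate were at 3 copies for each of chromosomes 6, 11 and 17, and on the disomic scale it was 100% for chromosome 6, 91.7% for chromosome 11 and 100% for chromosome 17, against 66.7% for each on fitted copies. This follows from the multipliers of 4N nuclei 2 to 5. Each 100% also counts 4N nucleus 3, whose levels of 2.52 (chromosome 6) and 2.55 (chromosome 17) were rounded up to 3. Requiring 25% of bins lowered the share of 2N+ nuclei with a mixed chromosome 6 to 2.86% and with a mixed chromosome 17 to 2.86%, and leaving out nuclei with over 60 breakpoints gave 3.12% for chromosome 17. Counting steps by the exact bin gave 138 positions, 12 of them in 3 or more nuclei, and leaving out the nuclei with over 60 breakpoints gave 46 and 8, against 83 and 20. With a limit of 0.7 copies, an alternative added after seeing the data, the dip of chromosome 11 was present in 2 nuclei, against 7. These changes follow from stricter limits or fewer nuclei. No paired analysis was possible because replicate numbers serve as names of nuclei and no result comes from a test. Unknown depth and bin noise set a limit: changes shorter than the shortest deposited segment cannot be seen.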
